A study of Mus musculus with 4 samples.

Results

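The genes described here encode mitochondrial ribosomal proteins, the protein part of the ribosome that works inside mitochondria. They were chosen by name alone, as the rows of the deposited expression table whose symbol begins with Mrpl (large subunit) or Mrps (small subunit) followed by a number. The rule found 77 of the 23997 genes in the table, 48 of the large and 29 of the small subunit. RNA sequencing had been run on Tfh cells, the follicular helper subset of CD4 T cells that supports antibody responses of B cells, taken from lymph nodes and spleens of C57BL/6 mice aged 13 weeks. One group was wild type (WT, 2 libraries) and the other lacked Apoe (Apoe-/-, 2 libraries), the gene of apolipoprotein E, a carrier of cholesterol and other lipids in plasma. The deletion is in the whole animal, not only in T cells. The labels give no treatment and no diet, give no sorting scheme for the Tfh cells, and do not say whether a replicate is an animal, a pool or a repeat preparation, so every p-value measures the spread between these libraries only, which may be technical. Levels are FPKM, sequenced fragments divided by transcript length in kilobases and by the mapped fragments of the library, and differences are Apoe-/- minus WT on the log2(FPKM + 1) scale.

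The mitochondrial ribosome translates the few mRNAs of mitochondrial DNA into membrane subunits of the respiratory chain and the ATP synthase. All of its proteins are encoded in the nucleus, made on cytosolic ribosomes and imported, whereas its ribosomal RNAs are transcribed from mitochondrial DNA. Some of its proteins descend from the ribosome of the bacterial ancestor and others occur only in mitochondria. Activated T cells enlarge their mitochondria and need mitochondrial translation for respiration.

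The upstream stretches of a few of these genes are shown first, because the promoters of nuclear genes for mitochondrial proteins are known for sites of the factors NRF1 and GABPA (an ETS factor) and of YY1. RefSeq promoter sequence (GRCm38.p6, the assembly also called mm10) was matched by symbol for 68 of the 77 genes. The 9 without an entry were Mrpl13, Mrpl15, Mrpl19, Mrpl38, Mrpl4, Mrpl54, Mrps28, Mrps34 and Mrps35. The stretches below end at the base before the annotated start and run 5′ to 3′ on the strand of the gene named first. Capitals mark matches within the printed bases only, to NRF1 or ETS where present, and otherwise or in addition to SP1. Mrps12 and Mrpl17 also hold an ETS match outside the printed bases, in the windows counted below. The interval between Mrps12 and its neighbour Sars2 is shown because Mrps12 had the largest difference between genotypes, and that between Mrps11 and Mrpl46 because it lies between genes of both subunits. Mrpl39 and Mrpl30 hold NRF1 matches and had differences of opposite sign, and Mrpl52 and Mrpl17 had the highest and the lowest level.
Mrps12-Sars2 interval, chr7:28741822-28741967, minus strand: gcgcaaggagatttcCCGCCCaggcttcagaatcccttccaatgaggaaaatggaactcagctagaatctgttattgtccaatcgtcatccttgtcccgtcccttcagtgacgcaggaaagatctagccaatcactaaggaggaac
Mrps11-Mrpl46 interval, chr7:78783090-78783130, plus strand: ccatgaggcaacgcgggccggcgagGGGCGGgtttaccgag
Mrpl39, chr16:84735245-84735394, minus strand: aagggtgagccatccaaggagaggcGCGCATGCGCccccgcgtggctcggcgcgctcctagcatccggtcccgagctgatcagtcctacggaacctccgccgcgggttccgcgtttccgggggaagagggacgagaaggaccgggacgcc
Mrpl30, chr1:37890327-37890476, plus strand: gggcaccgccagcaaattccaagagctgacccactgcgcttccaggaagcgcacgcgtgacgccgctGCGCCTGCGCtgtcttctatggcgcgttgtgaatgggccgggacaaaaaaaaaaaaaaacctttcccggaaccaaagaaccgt
Mrpl52, chr14:54426759-54426908, plus strand: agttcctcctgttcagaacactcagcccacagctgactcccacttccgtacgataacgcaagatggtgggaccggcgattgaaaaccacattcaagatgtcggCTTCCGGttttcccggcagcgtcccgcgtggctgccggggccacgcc
Mrpl17, chr7:105811088-105811237, minus strand: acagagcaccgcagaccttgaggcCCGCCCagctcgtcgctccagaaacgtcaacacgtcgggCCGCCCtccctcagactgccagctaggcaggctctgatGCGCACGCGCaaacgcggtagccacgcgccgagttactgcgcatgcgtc

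Exact matches on either strand were counted in windows of 300 bases, from 250 before to 50 after each start. The motifs were NRF1 (GCGC and TGCGC with any 1 base between them), ETS (CCGGAAG), YY1 (AAGATGGCG), SP1 (GGGCGG) and the TATA box (TATAAA), each counted on its own, so that a base may belong to matches of more than one motif. NRF1 matched in 13 of the 68 mitochondrial ribosomal windows (19.1%), against 12.3% of the tested genes with a window and 4.60% of all 32851 windows. ETS matched in 25 (36.8%, against 22.0% and 8.86%) and YY1 in 8 (11.8%, against 3.91% and 1.40%). At least 1 of these 3 motifs stood in 40 of the 68 windows (58.8%), against 33.9% of the tested genes. SP1 matched in 34 of 68 windows (50%), below the 69.4% of the tested genes and above the 35.7% of all windows. The TATA box matched in 5 (7.35%, against 8.28% and 13.6%). No test was made of these shares. Of the 42 large-subunit windows 10 held NRF1 and 14 held ETS, and of the 26 small-subunit windows 3 held NRF1 and 11 held ETS. Matches lay close to the start: 14 of 16 NRF1 matches, 26 of 29 ETS matches and 7 of 8 YY1 matches began within 100 bases before it or after it. The median difference between genotypes was 0.03 for the 13 genes with an NRF1 match and -0.04 for the 55 without, and -0.00 with and -0.02 without an ETS match.

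**Figure D1:**
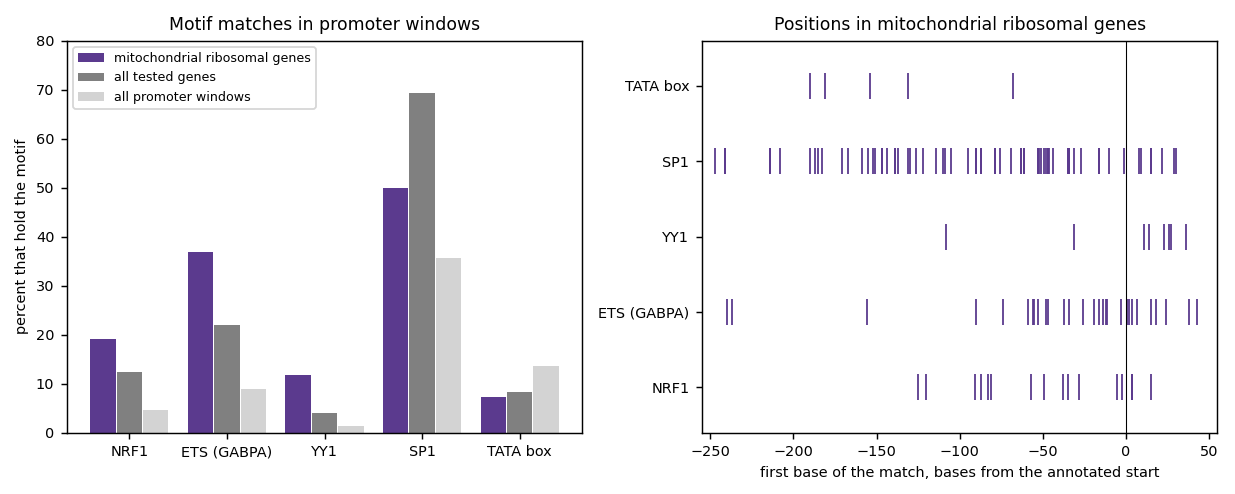
Left, percent of promoter windows with each motif, for the mitochondrial ribosomal genes, the tested genes and all windows; right, position of each match in the mitochondrial ribosomal windows, in bases from the annotated start. NRF1, ETS and YY1 bars of the mitochondrial ribosomal genes are above those of the tested genes, the SP1 bar is below, and most NRF1, ETS and YY1 matches lie near the start.

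As a check of the labels, Apoe itself stood at 145 and 128 FPKM in the WT and at 5.09 and 5.21 in the Apoe-/- libraries. Summed Tfh markers (7 genes) were 1390 to 1407 FPKM in WT and 1427 to 1447 in Apoe-/- libraries, with single markers of either sign, from Pdcd1 (-0.50) to Cxcr5 (0.33). None of the 7 passed the test, and 3 had an unadjusted limma p under 0.05 (42.9%, against 19.9% of tested genes). Markers of other cells differed between genotypes. All 9 B cell markers were lower in Apoe-/- without overlap (against 22.9% of tested genes), and 4 passed the test. Their sum was 325 to 330 against 193 to 202 FPKM, with none at 0. The 3 tested neutrophil markers were all higher and passed. Their whole list summed to 5.71 to 7.46 against 46.2 to 62.2 FPKM, with Camp and Elane at 0 in every library. Of 10 macrophage markers 8 were higher and 2 lower, and 1 passed (235 to 268 against 294 to 334 FPKM). All 5 tested dendritic cell markers were higher, and 1 passed (8.99 to 9.82 against 19.57 to 20.996 FPKM). All 6 tested CD8 and natural killer cell markers were higher, and 0 passed (18.99 to 20.99 against 29.4 to 37.5 FPKM). Of 2 tested plasma cell markers, Igj was higher (1.34) and passed, and Mzb1 was lower (-0.47) and did not. Of 3 tested erythroid markers 0 passed. Hba-a1 (-1.28) and Hbb-bt (-0.74) were lower, and Hbb-bs was higher (2.23) through Apoe-/- replicate 1. All 10 proliferation genes were lower, and 0 passed (132 to 147 against 110 to 125 FPKM). The part of these shifts in the values below was not tested, and in bulk RNA fewer cells of a type and less RNA per cell cannot be told apart. Read depth is unknown, and the FPKM totals of the libraries were 522371 to 551289.

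All 77 genes were expressed in every library, at mean levels from 4.91 FPKM (Mrpl17) to 201 FPKM (Mrpl52), a range of 41.0-fold. The median was 26.1 FPKM and the middle of the distribution (25th to 75th percentile) lay between 16.3 and 41.4, whereas the median over the whole table, silent genes included, was 0.477. Large-subunit genes had a median of 24.6 FPKM and small-subunit genes of 27.1, but the small-subunit range was narrower, from 10.05 to 94.7 FPKM (9.43-fold). The 5 highest were Mrpl52, Mrpl33, Mrps21, Mrps16 and Mrpl24, and the 5 lowest Mrpl19, Mrpl1, Mrpl11, Mrpl35 and Mrpl17. The order of the genes was nearly the same in each library, with Spearman's rho from 0.959 to 0.977 over the 77 genes in the 6 pairs of libraries, which share the same gene models.

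The highest gene, Mrpl52, a protein found only in mitochondria, stood at 203.6 and 174.2 FPKM in WT and at 221.8 and 204.6 in Apoe-/- libraries. Mrpl33 was at 122.7 and 121.6 against 115.1 and 113.4 FPKM. The levels of these first-ranked genes did not overlap with each other in any library. Mrps21 followed at 98.6 and 105.5 against 83.6 and 91.3 FPKM, and Mrps16 at 97.7 and 82.7 against 94.0 and 78.4 FPKM. These levels of Mrps21 and Mrps16 overlapped, so the order of the third and the fourth rank is not settled by these libraries. At the low end Mrpl17 was at 4.57 and 5.14 against 4.45 and 5.47 FPKM, and Mrpl1, a protein of the mobile L1 stalk next to the exit site of tRNAs, at 7.84 and 9.28 against 5.46 and 9.42 FPKM. Mrpl1 had the largest standard error of the 77 differences (0.24), with Apoe-/- replicate 1 apart from the other 3 libraries.

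**Figure D2:**
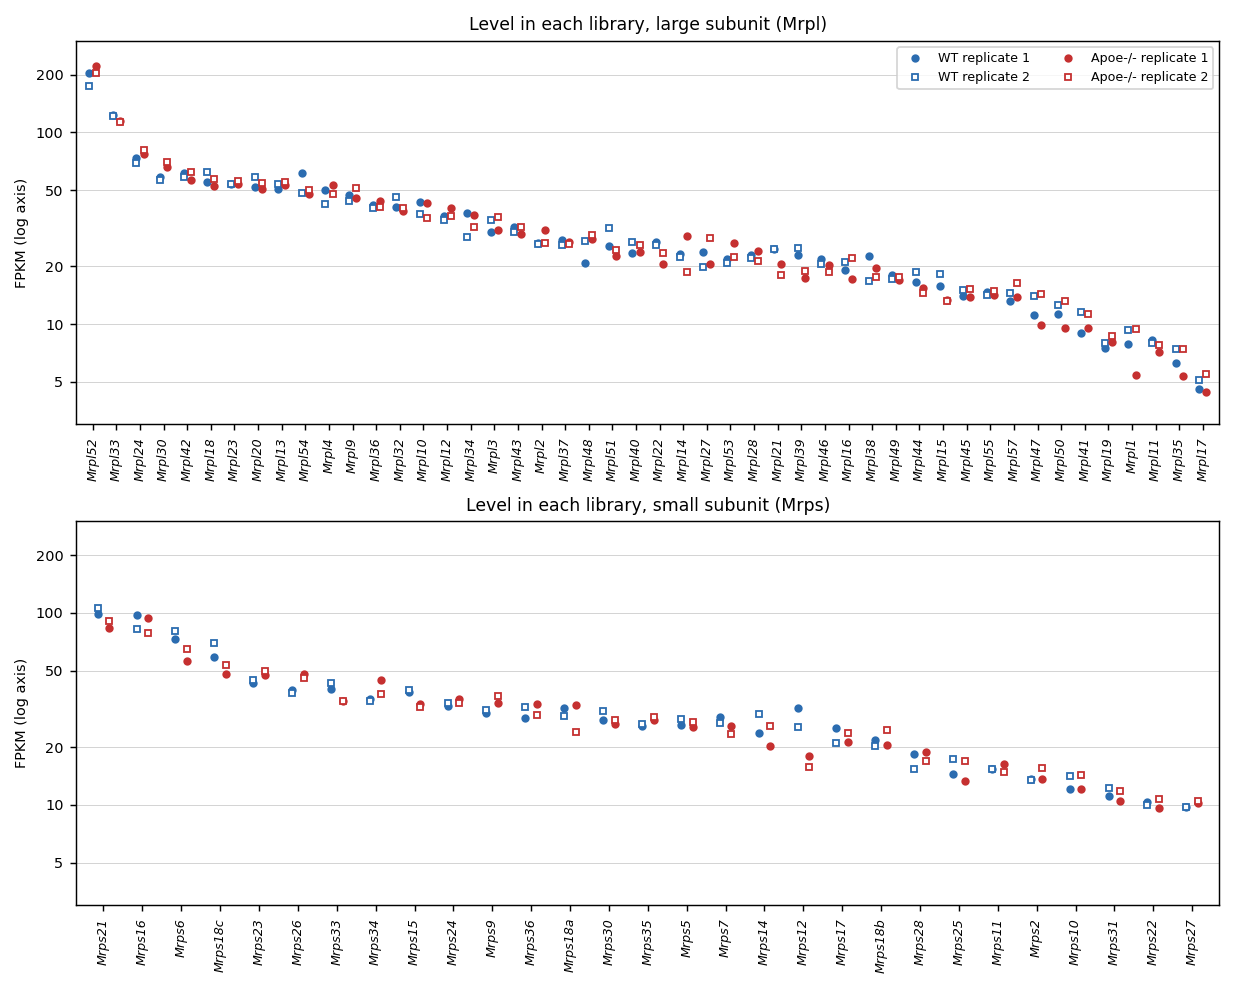
FPKM of each mitochondrial ribosomal gene in each of the 4 libraries on a log axis, ordered by mean level, large subunit above and small subunit below, 1 point per library, WT and Apoe-/- in different colours. The points of a gene lie close together compared with the range from 4.91 to 201 FPKM across genes. Those of 31 of 77 genes separate by genotype (40.3%, against 50.4% of tested genes), and Mrps12, among them, has the largest difference.

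None of the 77 genes passed the test in either direction (limma, adjusted p under 0.05), where 205 of 11187 tested genes did (1.83%). At an unadjusted limma p under 0.05 there were 8 of 77 (10.4%, against 19.9% of tested genes), 1 higher and 7 lower in Apoe-/- libraries. The groups did not overlap in 31 of 77 (40.3%, against 50.4%), of which 14 were higher (18.2%, against 27.5%) and 17 lower (22.1%, against 22.9%). These shares were at or below those of all tested genes. The median difference was -0.01, against 0.00 over all tested genes, with 34 positive and 43 negative values and an interquartile range of -0.11 to 0.08. Differences spread less than in the table as a whole: their SD was 0.169 against 0.356, and 1 of 77 (1.30%) reached 0.5 in size, against 9.24% of tested genes.

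Intervals of the differences were narrow for most genes, as far as the spread between these libraries measures them. The 95% interval lay within 1 log2 unit of 0 for 76 of the 77 genes, all but Mrps12, and within 0.5 for 59. Over the 11187 tested genes these counts were 10451 and 5251. The genotype difference exceeded the gap between replicates in both groups for 21 of 77 genes, against 40.6% of tested genes. Summed over all 77 genes, FPKM was 2630 and 2606 in WT and 2566 and 2587 in Apoe-/- libraries. These sums did not overlap, but the groups lay closer to each other than the libraries within either group. As a share of all FPKM they were 0.503% and 0.494% against 0.481% and 0.469%. The FPKM totals behind these shares were higher in both Apoe-/- libraries. With 2 libraries a side, an exact permutation test of such a sum cannot give a p below 0.333.

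**Figure D3:**
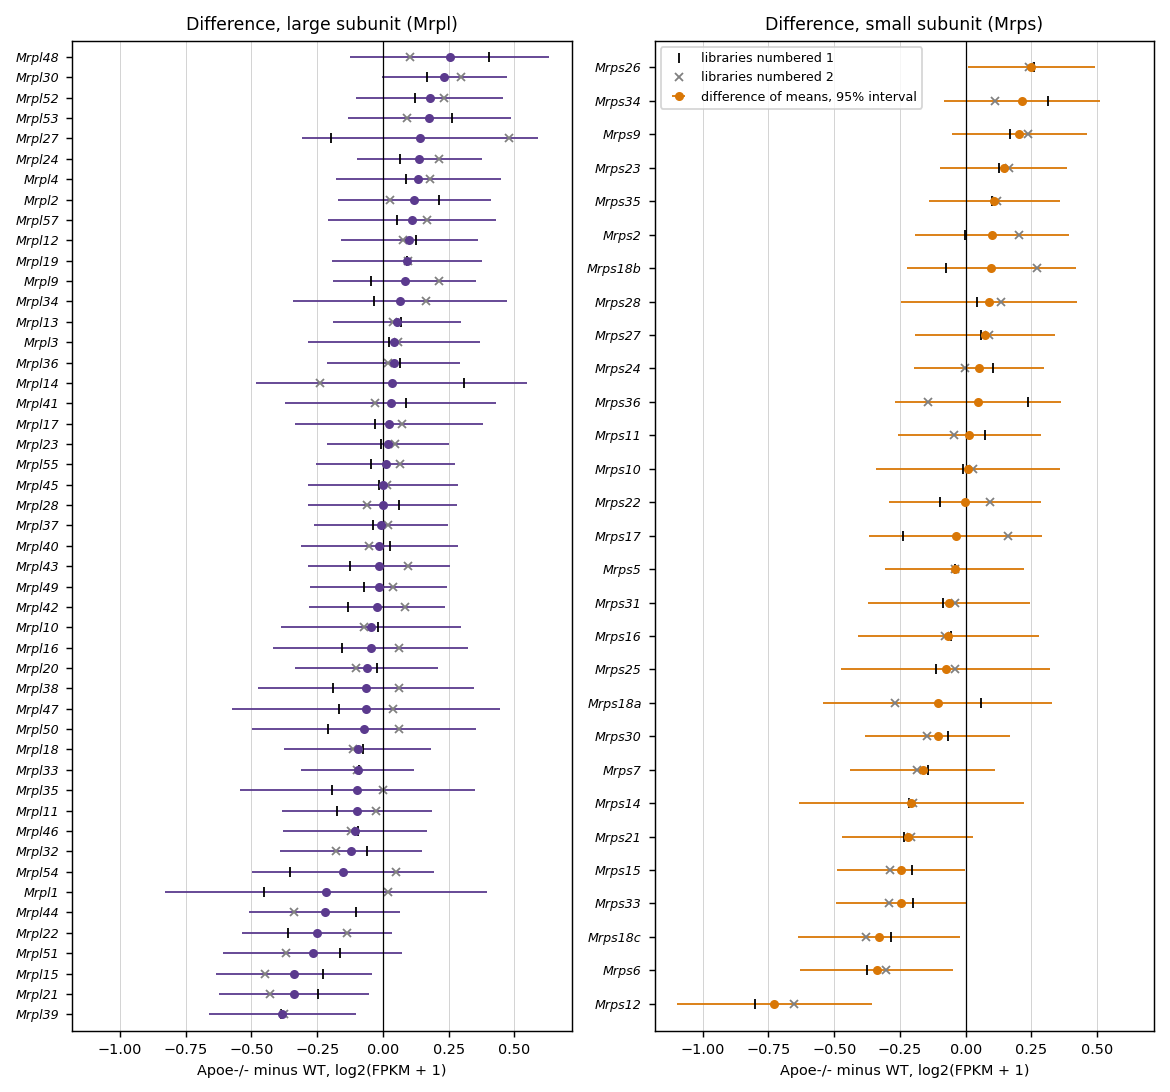
Apoe-/- minus WT difference of each mitochondrial ribosomal gene on the log2(FPKM + 1) scale with its 95% interval from limma, large subunit and small subunit in separate panels, ordered by size. All but 1 of the points lie between -0.38 and 0.25, and Mrps12 lies apart at -0.73.

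In the large subunit, 0 of 48 genes passed the test, and the median difference was -0.01. An unadjusted limma p under 0.05 was found for 3 (6.25%, against 19.9% of tested genes), all lower. The most negative was Mrpl39, a protein found only in mitochondria that resembles a threonyl-tRNA synthetase. It stood at 23.0 and 24.96 FPKM in WT and at 17.3 and 19.0 in Apoe-/- libraries. Both WT libraries were above both Apoe-/- libraries, with a difference of -0.38 ± 0.11 (SE; limma, adjusted p = 0.153). Mrpl21, the counterpart of bacterial L21, was at 24.8 and 24.7 against 20.7 and 18.1 FPKM (-0.34 ± 0.11, limma, adjusted p = 0.194). Mrpl15, the counterpart of bacterial L15, was at 15.8 and 18.3 against 13.3 and 13.2 FPKM (-0.34 ± 0.12, limma, adjusted p = 0.209). In neither gene did the groups overlap.

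Those proteins around the exit of the peptide tunnel that are given here had differences of either sign, and others at this site are not listed. Mrpl22 was at 26.6 and 25.9 against 20.5 and 23.5 FPKM (-0.25), Mrpl23 at 53.9 and 54.0 against 53.7 and 55.8 FPKM (0.02), and Mrpl24 at 73.9 and 69.2 against 77.2 and 80.4 FPKM (0.14). Mrpl45, which holds the ribosome at the inner membrane, was at 14.1 and 15.1 against 13.9 and 15.3 FPKM (-0.00). Groups did not overlap for Mrpl22, which was lower, and Mrpl24, which was higher, and neither passed the test. In the stalk that recruits translation factors, Mrpl12 was at 36.7 and 34.8 against 40.1 and 36.7 FPKM (0.10), Mrpl10, which anchors it, at 43.3 and 37.5 against 42.8 and 35.6 FPKM (-0.05), and Mrpl11 at its base at 8.23 and 7.97 against 7.18 and 7.80 FPKM (-0.10).

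The most positive large-subunit difference was that of Mrpl48, a mitochondria-specific protein of the central protuberance, at 20.7 and 27.1 against 27.8 and 29.2 FPKM. WT replicate 1 was low here, the groups did not overlap, and the difference was 0.25 ± 0.15 (limma, adjusted p = 0.413). Mrpl30 was tighter, at 58.7 and 56.5 against 66.1 and 69.7 FPKM (0.23 ± 0.09, limma, adjusted p = 0.258). Both Apoe-/- libraries were also above both WT libraries for Mrpl52 (0.18 ± 0.11, limma, adjusted p = 0.437) and Mrpl53 (21.9 and 20.8 against 26.4 and 22.3 FPKM, 0.18 ± 0.12, limma, adjusted p = 0.485). Mrpl51, also specific to mitochondria, was at 25.5 and 31.6 against 22.7 and 24.2 FPKM (-0.27 ± 0.14, limma, adjusted p = 0.347).

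In the small subunit, 0 of 29 genes passed the test, and the median difference was -0.04. An unadjusted limma p under 0.05 was found for 5 (17.2%, against 19.9% of tested genes), 1 higher and 4 lower. Mrps12, the counterpart of bacterial S12 at the decoding centre, had the largest difference of all 77 genes. Its levels were 32.0 and 25.4 FPKM in WT (28.7 ± 4.63, SD, n = 2) and 17.9 and 15.8 in Apoe-/- libraries (16.8 ± 1.49, SD, n = 2). Every Apoe-/- value was below every WT value, 1.70-fold lower in the mean. The difference was -0.73 ± 0.15, with a 95% interval of -1.10 to -0.36 (limma, adjusted p = 0.0872), so it missed the threshold over all genes. Without Apoe-/- replicate 1 the limma adjusted p was 0.0265, without Apoe-/- replicate 2 it was 0.0651, and over every other setting without a replicate block it lay between 0.0807 and 0.251.

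Further small-subunit genes with lower values in both Apoe-/- libraries had smaller differences. Mrps6 was at 73.5 and 80.6 against 56.4 and 65.1 FPKM (-0.34 ± 0.12, limma, adjusted p = 0.1995). Mrps18c was at 59.1 and 69.6 against 48.3 and 53.3 FPKM (-0.33 ± 0.12, limma, adjusted p = 0.226). The bacterial counterparts of Mrps6 and Mrps18c bind each other on the small subunit. Mrps15 was at 39.0 and 39.7 against 33.6 and 32.4 FPKM (-0.25 ± 0.10, limma, adjusted p = 0.247). Mrps33, specific to mitochondria, was at 40.1 and 43.0 against 34.7 and 34.9 FPKM (-0.25 ± 0.10, limma, adjusted p = 0.253), and Mrps21 differed by -0.22 ± 0.10 (limma, adjusted p = 0.297). In Mrps6, Mrps18c, Mrps15, Mrps33 and Mrps21 no Apoe-/- library reached the lowest WT library.

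In 6 of 29 small-subunit genes both Apoe-/- libraries were above both WT libraries (20.7%, against 27.5% of tested genes). Of these 6 genes 5 were classed as specific to mitochondria, as were 12 of the 29. Among the 12 are Mrps18a and Mrps18b, which are related to bacterial S18. Mrps26 was at 39.8 and 38.5 against 47.8 and 45.7 FPKM (0.25 ± 0.10, limma, adjusted p = 0.241). Mrps34, a protein needed for a stable small subunit, was at 35.6 and 34.8 against 44.5 and 37.7 FPKM (0.21 ± 0.12, limma, adjusted p = 0.386). Mrps23 was at 43.2 and 44.6 against 47.2 and 50.1 FPKM (0.14 ± 0.10, limma, adjusted p = 0.468). Mrps9, with a bacterial counterpart, was at 30.2 and 31.2 against 34.1 and 36.9 FPKM (0.20 ± 0.10, limma, adjusted p = 0.342). None of these passed the test.

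Mammals have 3 S18 proteins that occupy different places: Mrps18c and Mrps18b in the small and Mrps18a in the large subunit. Of their summed FPKM, Mrps18c made up 52.5% and 58.6% in WT and 47.4% and 52.4% in Apoe-/- libraries, so that both Apoe-/- shares were below both WT shares, with replicate 2 of the former almost equal to replicate 1 of the latter. Mrps18a was at 31.8 and 28.9 against 33.1 and 23.8 FPKM (-0.11) and Mrps18b at 21.7 and 20.3 against 20.5 and 24.7 FPKM (0.10), both with overlapping groups. Mrps30 also sits in the large subunit despite its name, at 27.6 and 30.8 against 26.3 and 27.7 FPKM (-0.11). Mrps36 is now known as a part of the 2-oxoglutarate dehydrogenase complex and was at 28.2 and 32.5 against 33.4 and 29.3 FPKM (0.05).

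Between subunits, the median difference of the small subunit minus that of the large subunit was -0.03. The summed FPKM of the large subunit was 1665 and 1625 in WT and 1650 and 1666 in Apoe-/- libraries, and these overlapped. That of the small subunit was 965 and 981 against 916 and 921 FPKM, with both Apoe-/- libraries lower. Placed by structure, with Mrps30 and Mrps18a counted as large and Mrps36 left out, the medians were -0.01 for 50 large-subunit and -0.02 for 26 small-subunit genes. For a grouping by origin the subunit was again taken from the symbol. The 16 small-subunit genes with a bacterial counterpart had a median of -0.05, with 6 lower (37.5%, against 22.9% of tested genes) and 1 higher (6.25%, against 27.5%) without overlap. The 12 classed as specific to mitochondria had a median of 0.04. Mrps30 (-0.11) and the S18 proteins Mrps18a (-0.11) and Mrps18b (0.10) are among them. A grouping with these S18 proteins counted as bacterial counterparts was not made. Of the 12 genes 1 was lower (8.33%) and 5 higher (41.7%), and sets this small give only a rough share. The 30 large-subunit genes with a bacterial counterpart had a median of 0.01 and the 18 specific to mitochondria one of -0.02. With libraries rescaled to one FPKM total the median of all tested genes itself moved to -0.04, so the sign of medians this close to 0 depends on the scaling. No test was made of these differences between groups of genes.

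Both genotypes have replicates numbered 1 and 2, and low values of the table (0.001 to 0.15 FPKM) stood in one common ratio more often between libraries of equal number. The commonest ratio, within 0.04 on the log2 scale, held 19.0% and 18.8% of these genes in the equal-numbered pairs and 4.53% to 6.44% in the other 4 pairs. Differences were therefore also taken within each number, although the labels do not say that a number marks a shared animal or day. The median over the 77 genes was -0.04 for number 1 and 0.02 for number 2. The sign was the same in both for 47 of 77 genes (61.0%), against 79.8% of tested genes, with 27 lower and 20 higher in both. Mrps12 (-0.80 and -0.65), Mrpl39 (-0.39 and -0.38), Mrps6 (-0.37 and -0.30) and Mrps26 (0.26 and 0.24) had similar values in both. Mrpl27 (-0.20 and 0.48) and Mrpl14 (0.31 and -0.24) had opposite signs, and each has an Apoe-/- pair with a wide gap, 20.6 and 28.1 FPKM for Mrpl27 and 28.9 and 18.8 FPKM for Mrpl14.

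**Figure D4:**
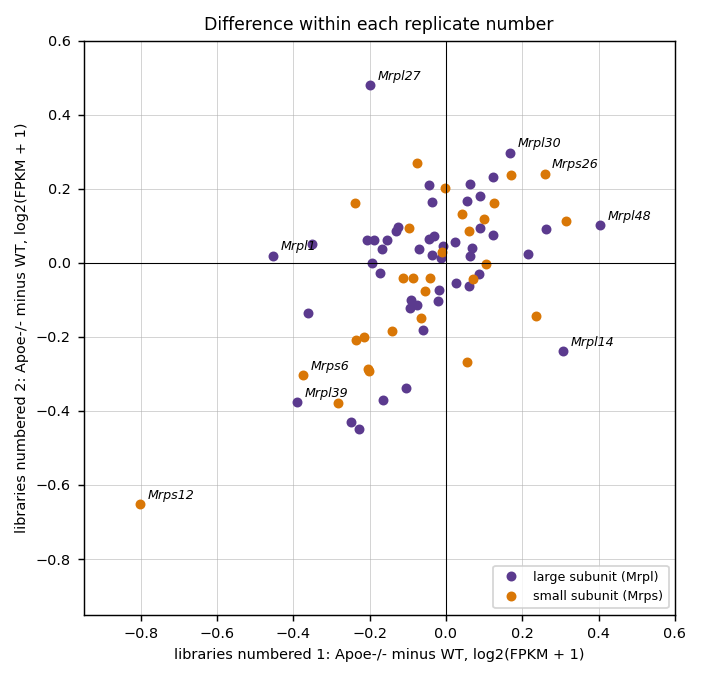
Each point is 1 mitochondrial ribosomal gene; the x axis is its Apoe-/- minus WT difference between the libraries numbered 1 and the y axis that between the libraries numbered 2, both on the log2(FPKM + 1) scale. Most genes cluster around 0, Mrps12 lies far to the lower left, and Mrpl27 and Mrpl14 lie in quadrants of opposite sign.

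The 77 genes are spread over 17 chromosomes, with at most 10 on any 1 of them. Mrps12 (RefSeq, chr7:28739641-28741821, minus strand) lies 9.04 Mb from Apoe and is the only one of them within 20 Mb of it. The others on chromosome 7 lie farther away: Mrpl46 (-0.11) and Mrps11 (0.01) at 59.1 Mb, Mrpl48 (0.25) at 80.8 Mb, Mrpl17 (0.02) at 86.1 Mb and Mrpl23 (0.02) at 122.8 Mb. The labels do not say in which strain the Apoe deletion was made or how far it was backcrossed, so the deletion and other differences of that region cannot be told apart.

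Sars2, the mitochondrial seryl-tRNA synthetase, starts on the other strand across the first interval printed above, 146 bases long by RefSeq. It was looked at after the values of Mrps12 were seen. It stood at 10.3 and 8.22 FPKM in WT and at 14.7 and 12.2 in Apoe-/- libraries. Every Apoe-/- value was above every WT value, opposite to Mrps12, with a difference of 0.49 ± 0.16 (limma, adjusted p = 0.180) and of 0.47 and 0.51 within numbers 1 and 2. By the GENCODE annotation (release M21), which puts the starts of Mrps12 and Sars2 172 bases apart, 23 of the 77 genes have a partner on the other strand with starts at most 1000 bases apart or overlapping by at most 300. Of the 22 pairs with both genes tested, 6 had the same sign and 16 opposite signs, and 0 partners passed the test (limma; 3, Sars2 among them, had an unadjusted p under 0.05). Across the 22 pairs Pearson's r was -0.32 and Spearman's rho -0.22, as a description of pairs from the same libraries. These counts and correlations include Mrps12 and Sars2, the pair that prompted the look. That pair held the most negative member difference (-0.73) and the most positive partner difference (0.49), and it weighs heavily on r. The share of opposite signs among other neighbouring genes was not counted, so no tendency of partners is read from these values. Mrpl46 and Mrps11, with 41 bases between their starts by RefSeq, overlap by more than 300 bases in GENCODE and are not among these pairs. They were at 21.9 and 20.5 against 20.4 and 18.8 FPKM and at 15.4 and 15.4 against 16.3 and 14.9 FPKM.

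In the same GENCODE release, 32 of the 77 genes share exon sequence with another gene, 20 of them with a protein-coding gene on the opposite strand. Whether counting used the strand is not given in the sources used here, so values of these genes may hold reads of their neighbours. Among the genes with values above, Mrpl21 (with Ighmbp2), Mrpl48 (with Rab6a), Mrpl24, Mrpl14, Mrpl27, Mrps30, Mrps34, Mrpl46 and Mrps11 overlap a protein-coding gene on the opposite strand, as does Mrpl19. Mrps6 (with Slc5a3) and Mrpl53 overlap one on their own strand, and Mrpl10, Mrpl12, Mrpl33, Mrpl51, Mrps18b, Mrps18c and Mrps26 overlap a non-coding or unclassified transcript. Mrps12, Mrpl39 and Mrpl30 share none. The 45 genes with no overlap had a median difference of -0.02 and the 32 with overlap of 0.02.

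Other genes of mitochondrial translation were read from lists. In these lists the share with an unadjusted limma p under 0.05 ran from 7.69% to 20%, against 19.9% of tested genes. Of 10 translation factors 0 passed the test (limma; 2 with an unadjusted p under 0.05), with a median of -0.08 that ranged from -0.20 to 0.06 with a library left out. Gfm2, which recycles ribosomes, had their most negative difference at 17.0 and 18.1 against 13.3 and 13.4 FPKM (-0.37, limma, adjusted p = 0.146), and Mtrf1, a release factor, the most positive at 1.56 and 1.92 against 2.03 and 3.44 FPKM (0.42, limma, adjusted p = 0.348). Of 22 assembly and ribosomal RNA factors 0 passed (2 with an unadjusted limma p under 0.05; median 0.01, and -0.03 with libraries rescaled to one FPKM total). Fastkd2, which binds the large ribosomal RNA, was at 7.42 and 9.27 against 4.96 and 6.38 FPKM (-0.49, limma, adjusted p = 0.203). Mrm1, a methyltransferase of that RNA, was at 6.63 and 7.06 against 11.2 and 10.6 FPKM, with groups far apart (0.60 ± 0.11, limma, adjusted p = 0.0755).

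Of 20 genes listed as mitochondrial tRNA synthetases 0 passed (4 with an unadjusted limma p under 0.05). Their median was -0.06, and 0.13 over those with a mean FPKM of 5 or more. The list includes Qrsl1, Pet112 and Gatc, which encode subunits of a tRNA amidotransferase and not synthetases. Lars2, the mitochondrial leucyl-tRNA synthetase, had the most positive difference of the list, at 186.8 and 94.7 against 144.2 and 469.0 FPKM. Apoe-/- replicate 2 was far above the others (0.96 ± 0.60, limma, adjusted p = 0.431), and the difference ran from 0.12 to 1.81 with a library left out. Of 13 genes of mitochondrial DNA expression 0 passed (1 with an unadjusted limma p under 0.05; median -0.00). Slirp, which stabilises mitochondrial mRNAs, was lowest in difference at 64.4 and 71.2 against 47.9 and 58.4 FPKM (-0.35), and Ssbp1, which coats single-stranded mitochondrial DNA, highest at 26.9 and 35.0 against 30.0 and 39.3 FPKM (0.16). Of 6 proteins of the mitochondrial ribosome with other names 0 passed (1 with an unadjusted limma p under 0.05; median -0.06), from Chchd1 (36.3 and 34.5 against 30.6 and 27.6 FPKM, -0.28) to Ict1 (35.2 and 35.7 against 39.4 and 43.0 FPKM, 0.21).

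The cytosolic ribosome gives a comparison. Of its 79 tested protein genes 0 passed (limma), but 41 had an unadjusted p under 0.05 (51.9%, against 10.4% of the mitochondrial ribosomal genes), and groups did not overlap in 61 of 79 (77.2%, against 40.3%), 60 of them higher in Apoe-/- libraries. Their median difference was 0.21, with 74 of 79 positive, against -0.01 with 34 of 77 positive. It was 0.17 with libraries rescaled to one FPKM total and 0.05 under quantile normalization, so its size depends on the scaling. Their summed FPKM was 104373 and 102498 in WT and 121267 and 119976 in Apoe-/- libraries, while that of the mitochondrial ribosomal genes was slightly lower in the Apoe-/- libraries. Of 80 tested genes named as respiratory chain and ATP synthase subunits encoded in the nucleus 0 passed, with a median of -0.05. They were taken by symbol, which brings in genes such as Atp5sl and Cox7a2l that are not strictly subunits. An unadjusted limma p under 0.05 was found for 6 (7.5%, against 19.9% of tested genes). Groups were apart in 14 higher (17.5%, against 27.5% of tested genes) and 27 lower genes (33.8%, against 22.9%). The difference between these groups of genes was not tested.

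**Figure D5:**
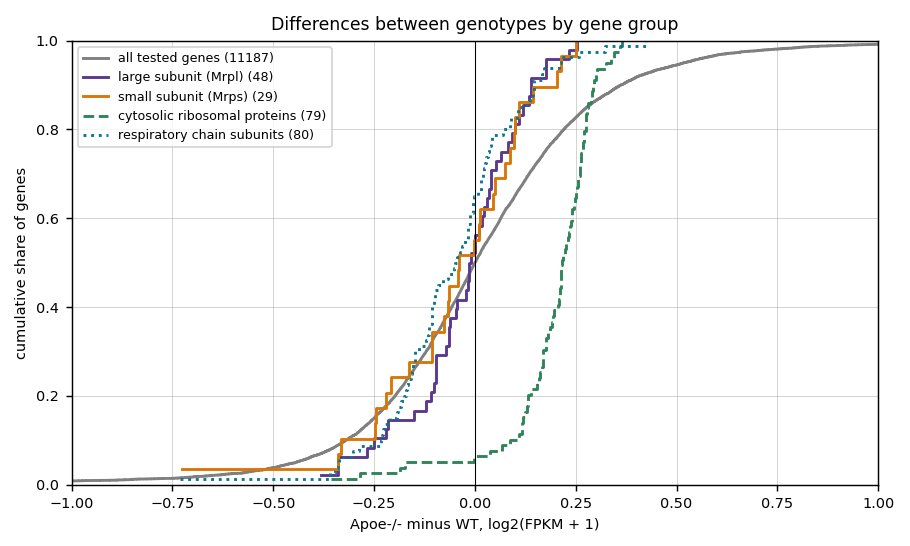
Cumulative share of genes against the Apoe-/- minus WT difference on the log2(FPKM + 1) scale, for the large and small mitochondrial ribosomal subunits, cytosolic ribosomal proteins, respiratory chain subunits and all tested genes. The curves of both mitochondrial subunits rise steeply around 0, and that of the cytosolic ribosomal proteins lies to the right, around 0.21.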

How the data were processed

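FPKM values per gene symbol and library were used as the authors deposited them. Tools listed in the submitters' processing notes are TopHat2 2.0.13, Cuffdiff 2.2.0 and CASAVA 1.8.2, with build mm10; annotation, strand setting and filters: not given in the sources used here. In 2 rows a space stood for a tab, and they were split on white space. Read depth is unknown. Values were analysed as log2(FPKM + 1), which understates changes of low genes, for 11187 genes whose mean FPKM reached 1, by limma 3.58.1 in R 4.3.3 (two-sided, eBayes with trend); p-values were adjusted over these genes by the Benjamini-Hochberg method, threshold 0.05; the fit was tested on simulated data. Groups came from the labels. The 77 genes, the lists and the motifs were chosen with earlier results of these data known. Named by rule were the 8 largest differences of each sign, the 5 highest and 5 lowest levels, Mrps30, Mrps36, Mrpl12, the S18 genes, any gene within 20 Mb of Apoe, and the extremes of each list, of which 1 is not reported here; Mrps15, Mrpl10, Mrpl14, Mrpl23, Mrpl27, Mrpl45, Mrpl46, Mrps11, Mrps33 and Sars2 were added after their values were seen. Alternatives were other pseudocounts (0.1, 0.5), filters (none, 5), scalings, no trend, a replicate block and each library left out.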

Additional observations from a re-analysis of the deposited data

How the results depend on the processing

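The count of mitochondrial ribosomal genes passing the limma test was 0 in 12 of 14 settings. With a replicate block, 4 were higher and 11 lower (15 of 77, 19.5%, against 32.9% of tested genes), with Mrps12 lower at an adjusted p of 0.00293; without Apoe-/- replicate 1 the only call was Mrps12, so calls of lower genes ranged from 0 to 1 when a library was left out, and those of higher genes stayed at 0. The labels do not pair equal numbers; deviations of equal-numbered libraries correlated at 0.21 over all tested genes and 0.50 over the 77, and the block was not used in the report. The median over the 77 genes was -0.0599 with libraries rescaled to one FPKM total, and -0.0690 to 0.0213 with a library left out. The small-subunit median was -0.0846 with one FPKM total, -0.0283 with one median, -0.0179 under quantile normalization, -0.0200 by structure, and -0.0740 to 0.0104 with a library left out. Signs turned for small differences with one FPKM total (Mrpl14 -0.0120, Mrpl17 -0.0183, Mrpl23 -0.0287, Mrps11 -0.0314, Mrps36 -0.0012), with one median (Mrpl45 0.00976) and under quantile normalization (Mrpl17 -0.0202, Mrpl45 0.00785). With a library left out they turned for Mrpl1 (-0.56 to 0.13), Mrpl10 (-0.17 to 0.0836), Mrpl14 (-0.26 to 0.33), Mrpl17 (-0.10 to 0.15), Mrpl23 (-0.00876 to 0.0460), Mrpl27 (-0.0734 to 0.35), Mrpl35 (-0.30 to 0.11), Mrpl45 (-0.0634 to 0.0629), Mrps11 (-0.0473 to 0.0749), Mrps16 (-0.20 to 0.0638), Mrps18a (-0.34 to 0.12), Mrps18b (-0.0302 to 0.23), Mrps36 (-0.0539 to 0.14) and Ssbp1 (-0.0320 to 0.35). The cause was not tested. With 2 libraries a group, a lone library was assumed to vary like the other group.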
